A study of Mus musculus with 4 samples.

Results

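The TALE cofactor genes are the genes of homeodomain proteins of the Pbx, Meis, Pknox and Tgif families, and 9 of them were followed here: Pbx2, Pbx3, Pbx4, Meis1, Meis2, Meis3, Pknox1, Pknox2 and Tgif1. They were chosen by name, as genes of these families that a RefSeq transcript accession in the array annotation maps to. They are 9 of the 37080 genes read on the arrays, where a probe without a RefSeq symbol counts under its own annotation name. Some genes may thus be counted more than once in shares and ranks over all genes. The array carries 12 probes for them, each as a single spot: 3 for Meis3, 2 for Pknox1 and 1 for each of the other 7 genes. Of these probes, 11 were well above background on all 4 arrays, and the remaining one, the dimmest for Meis3, was well above background on none. Every gene was read at its brightest probe, so all 9 genes were detected in every line.

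TALE proteins carry a homeodomain with a short loop extension and act largely as DNA-binding partners of Hox proteins. Pbx proteins bind DNA together with Hox proteins, and Meis and Pknox proteins bind to Pbx, which brings Pbx into the nucleus and stabilises it. Tgif proteins are related repressors that can occupy Meis-like sites and that dampen Smad and retinoid signalling. Hoxa9, Meis1 and Pbx3 are best known together from leukaemia, where they are expressed in the same cells.

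RNA came from 4 mouse embryonic stem (ES) cell lines, with 1 one-colour array for each. They were parental ES cells of the EB3 line, 2 independent clones of EB3 cells that stably express Nup98-HoxA9 (clone #1 and clone #9), and 1 clone that expresses HoxA9-Ct. Nup98-HoxA9 is a leukaemia fusion of the N-terminal FG repeats of human Nup98, a nuclear pore protein, with the C-terminal part of HoxA9 that holds the homeodomain, while HoxA9-Ct is that C-terminal part alone. Both were delivered as FLAG-tagged transgenes with a transposon vector, so each clone carries its own insertions, and parental ES and HoxA9-Ct ES were each represented by a single array with no replicate.

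Feature Extraction called between 49.93% and 53.01% of the spots outside the controls well above background per array. The 6 markers of pluripotent ES cells, among them Pou5f1 and Nanog, were detected in every line, and none was called in any comparison. Both probes of Hoxa9 were bright in the clones (signals of 341.3 and 409.5 at the brighter one) but below the detection limit in the other lines, so they did not register the HoxA9-Ct transgene, and whether their signal in the clones comes from the fusion or from the endogenous gene was not tested. Of 39 Hox cluster genes, 23 were higher in the clones than in parental ES.

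A signal is the background-subtracted, detrended brightness of a spot in arbitrary units. Ratios were taken after each signal had been divided by the 75th percentile of its array (229.2 for parental ES, 222.1 and 253.0 for clones #1 and #9, 209.1 for HoxA9-Ct ES). Differences between groups were tested with limma over all probes, and a gene is called higher or lower where its Benjamini-Hochberg adjusted p is under 0.05. In bulk RNA, a change in the share of cells that express a gene and a change in RNA per cell cannot be told apart.

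Of the 9 genes, Pbx3 alone was called in any of the 3 comparisons. Pbx3 read 311.6 in parental ES and 249.8 in HoxA9-Ct ES, against 1897 in clone #1 and 2537 in clone #9. Both clones were thus far above both other lines, and parental ES and HoxA9-Ct ES lay close together. After scaling, clone #1 was 6.28-fold and clone #9 7.37-fold above parental ES, log2 ratios of 2.65 and 2.88, with an SD between the clones of 0.16. The mean of the clones exceeded parental ES by 2.77 on the log2 scale (6.80-fold, SE 0.556, 95% interval 1.68 to 3.86, limma adjusted p = 0.000158). It exceeded HoxA9-Ct ES by 2.95 (7.74-fold, 95% interval 1.86 to 4.04, limma adjusted p = 3.55e-05). The background for these calls was 0.882% of all genes called higher in the clones than in parental ES and 0.774% called higher than in HoxA9-Ct ES, so 1 of 9 genes is a share above the background that rests on a single gene. HoxA9-Ct ES differed from parental ES by -0.19 for Pbx3 (95% interval -1.45 to 1.07, limma adjusted p = 1.0). The ratio to parental ES stayed between 2.56 and 2.88 under every alternative run, but 3 of 10 alternatives with a test gave an adjusted p above 0.05, in fits with few prior degrees of freedom, where the spread differs between probes (adjusted p = 0.0883 to 0.422 against parental ES).

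**Figure D1:**
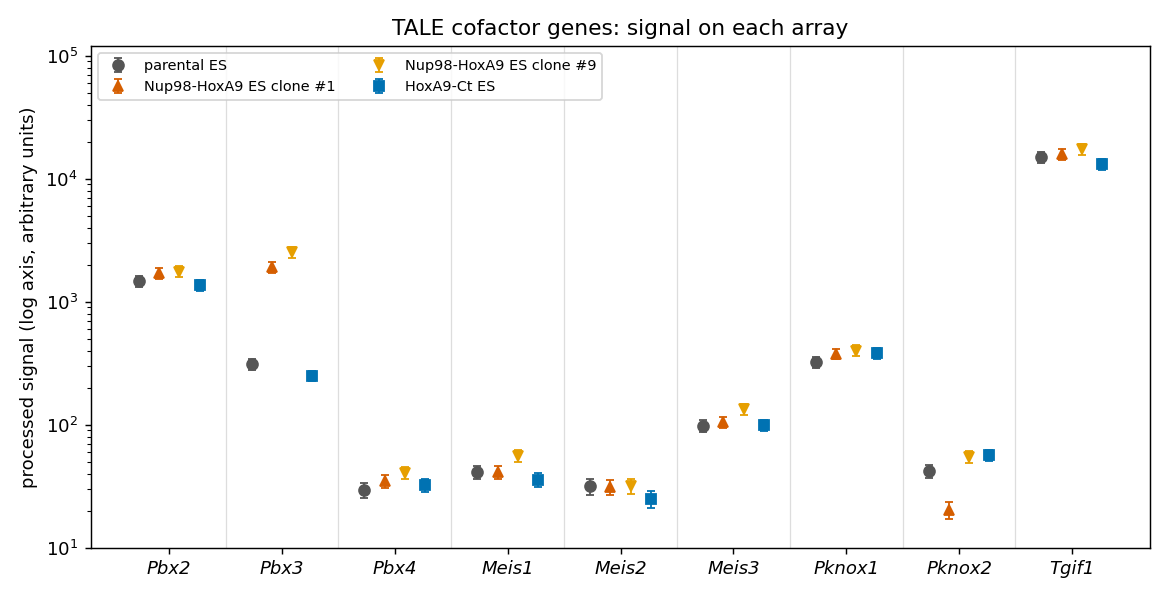
Processed signal of the 9 TALE cofactor genes on each array, on a log axis in arbitrary units, at the brightest probe of each gene; points are single arrays and error bars are the error that Feature Extraction estimates for the spot. Only Pbx3 has both clones (1897 and 2537) well apart from parental ES (311.6) and HoxA9-Ct ES (249.8), while Pknox2 is low in clone #1 alone (20.25). Heights of different genes come from different probes and cannot be compared.

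Pbx2 encodes a broadly expressed Pbx protein, and it read 1459 in parental ES, 1708 and 1756 in clones #1 and #9, and 1356 in HoxA9-Ct ES. The scaled values of the 4 lines lay within 0.27 of each other on the log2 scale. Pbx4, known mostly from the testis, was dim, with signals of 29.39, 34.61, 40.74 and 32.24 in the same order of lines. Its log2 ratios to parental ES were 0.28 and 0.33 in clones #1 and #9 and 0.27 in HoxA9-Ct ES, so the 3 transgenic lines lay together slightly above the single parental array. Neither gene was called. The 95% interval of the difference between clones and parental ES ran from -0.89 to 1.29 for Pbx2 and from -0.79 to 1.39 for Pbx4. Rises of 2-fold thus lay within both. The intervals have the same width for every probe, since the spread was pooled over all probes. Of these probes, 25045 were well above background on no array. These intervals are not adjusted for the number of probes, and a call needed a larger change. Gata4, for example, was not called in this comparison at a log2 difference of 1.88 (limma adjusted p = 0.0507).

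Meis1, which cooperates with Hoxa9 in leukaemia, was not called in any comparison. It read 41.06 in parental ES, 41.05 and 55.71 in clones #1 and #9, and 35.77 in HoxA9-Ct ES. Clone #1 matched parental ES (log2 ratio 0.04) and clone #9 lay 0.30 above it, and the mean difference of 0.17 had a 95% interval of -0.92 to 1.26. Meis2, a regulator of limb, face and brain development, gave signals of 31.67, 31.19, 31.51 and 25.01 in the same order. Meis3, known from hindbrain patterning, gave 97.95, 104.7, 133.5 and 98.66 at its brightest probe. Neither gene was called in any comparison. The second detected probe of Meis3 read 49.87, 42.67, 63.37 and 41.14, with a log2 ratio of -0.18 in clone #1 where the brightest probe gave 0.14, so the direction of Meis3 in that clone depended on the probe.

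Pknox1, also known as Prep1, is a partner of Pbx needed in the early embryo. Its brightest probe gave 323.6 in parental ES, 376.9 and 400.3 in clones #1 and #9, and 382.4 in HoxA9-Ct ES, and its other probe gave 97.52, 105.3, 113.4 and 117.9. Both probes were thus lowest in parental ES. The log2 ratios to parental ES were 0.27, 0.16 and 0.37 at the first and 0.16, 0.08 and 0.41 at the second, in the order of clone #1, clone #9 and HoxA9-Ct ES, and no difference passed the test.

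Pknox2 was the gene on which the clones disagreed. It read 42.07 in parental ES, 20.25 and 54.79 in clones #1 and #9, and 56.36 in HoxA9-Ct ES. Clone #1 was lower than every other line, and clone #9 and HoxA9-Ct ES both lay above parental ES. The log2 ratio to parental ES was -1.01 and 0.24 in clones #1 and #9 and 0.55 in HoxA9-Ct ES, and clone #9 exceeded clone #1 2.38-fold. With 1 array per clone this difference has no test. Among the 19239 genes well above background on all arrays, the median distance between the clones was 0.20 on the log2 scale and 3.77% of genes were more than 1 apart, and Pknox2 was the only one of the 9 genes in that range. The mean difference of clones and parental ES was -0.39 (95% interval -1.48 to 0.70), and that of clones and HoxA9-Ct ES was -0.94 (95% interval -2.03 to 0.15, limma adjusted p = 1.0).

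Tgif1, a repressor that limits Smad and retinoid signalling, gave 15020 in parental ES, 15890 and 17300 in clones #1 and #9, and 13180 in HoxA9-Ct ES. Its log2 ratios to parental ES of 0.13, 0.06 and -0.06 were the narrowest range of the 9 genes over the 4 lines, and none of its differences was called. A table of promoters from RefSeq (GRCm38.p6, 250 bases before to 50 after a transcript start) holds 10 windows for 6 of the 9 genes. It has none for Pbx3, Pknox1 and Pknox2, whose promoters were therefore not searched. Within the 10 windows, matches to short sequences bound by TALE proteins were found only at Tgif1, which has 5 of the windows. The letters searched on both strands were TGACAG, the Meis and Tgif sequence, present in 2 of the 10 windows and in 19.2% of all 32851 windows of the table. TGATTGAT, bound by Pbx with a Hox partner, was in none of the 10 and in 0.746% of all, and TGATTTAT, bound by Pbx with posterior Hox proteins, was in 1 of the 10 and in 0.977% of all. The matches are shown because Tgif1 belongs to the proteins that recognise the first of these sequences. Capitals mark the match within 30 bases of the minus strand, and each is a match of letters and no measured site.
Tgif1 chr17:70851188-70851217: gctctctcactcTGACAGcgccgaggtgcg
Tgif1 chr17:70846728-70846757: tttaggttcatatctaatTGACAGtcttaa
Tgif1 chr17:70849906-70849935: tttttttgttgTGATTTATgtggagtggtt

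**Figure D2:**
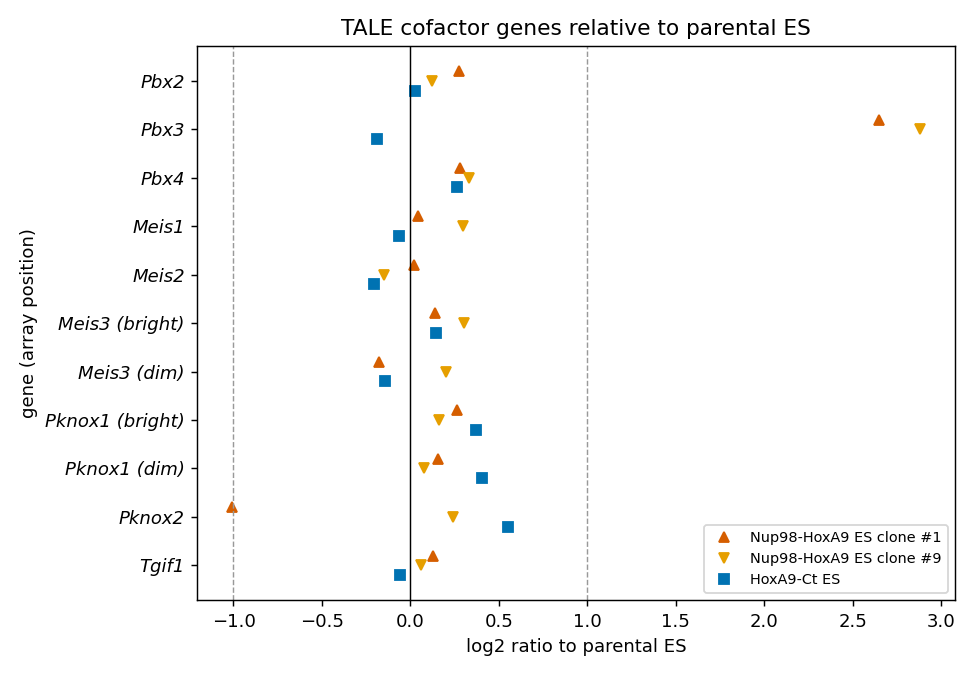
Log2 ratio to parental ES of the 11 detected probes of the 9 genes in clone #1, clone #9 and HoxA9-Ct ES, with 1 point per array and dashed lines at 2-fold; for Meis3 and Pknox1, bright marks the probe with the higher signal. The Pbx3 points of both clones lie at 2.65 and 2.88, the Pknox2 point of clone #1 at -1.01, and every other point within 2-fold of parental ES.

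Without Pbx3, the other 8 genes ranged from -0.39 to 0.31 in the log2 difference of clones and parental ES, with a median of 0.19. The median of all 9 was 0.20, against -0.15 over all 37080 genes and -0.06 over the 19239 genes well above background on all arrays. Of the 9, all well above background on every array, 1 rose by over 2-fold in both clones and 0 were lower by over 2-fold in both, against 1.28% and 0.754% of the 19239 genes. limma called 0 of 9 lower in the clones than in parental ES (0.615% of all genes) and 0 lower than in HoxA9-Ct ES (0.661%), and at an unadjusted p under 0.05 Pbx3 was again the 1 gene in each comparison.

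In HoxA9-Ct ES, 0 of 9 genes were called higher or lower than in parental ES (backgrounds of 0.237% and 0.213% of all genes), and 0 had an unadjusted p under 0.05. The log2 differences ranged from -0.21 in Meis2 to 0.55 in Pknox2, with a median of 0.03 against 0.05 over all genes, and none of the 9 was more than 2-fold from parental ES. This comparison rests on 1 array for each line, and its 95% interval reached 1.26 to either side on the log2 scale, or 2.39-fold. The comparisons share arrays, so their values are not independent of each other.

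Pbx3 was among the genes with the largest joint rise in the clones. Of 19239 genes well above background on all arrays, 17 including Pbx3 had a ratio to parental ES of at least 2.65 in both clones. Against HoxA9-Ct ES, 18 genes, again including Pbx3, had ratios in both clones at least as large as the lower one of Pbx3.

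**Figure D3:**
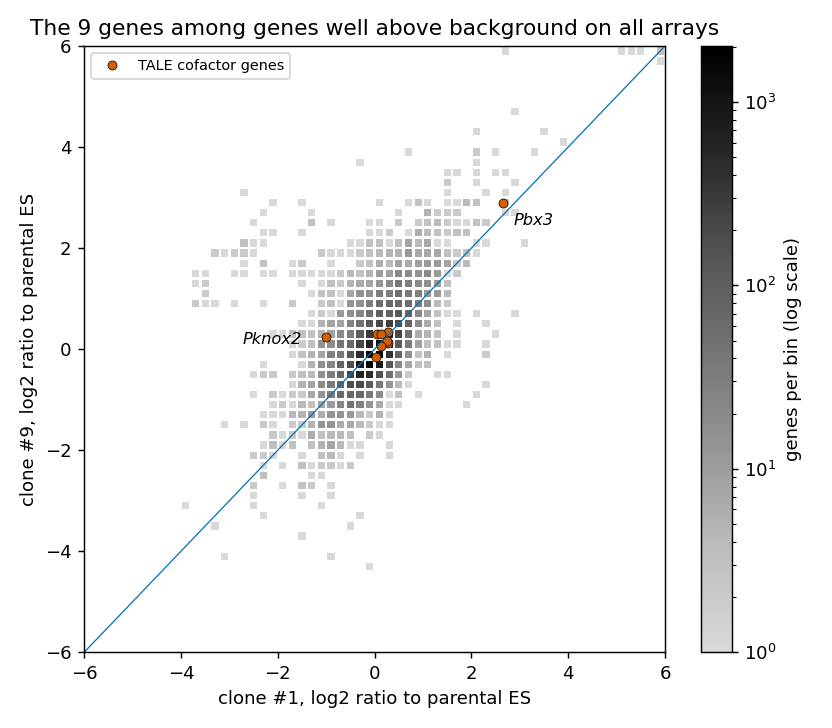
Log2 ratio to parental ES in clone #9 against clone #1; grey squares count the 19239 genes well above background on all 4 arrays per bin on a log colour scale, with values beyond the axes drawn at the edge, orange points are the 9 TALE cofactor genes, and the line marks equal ratios. Pbx3 lies near the line at 2.65 and 2.88, Pknox2 lies off it at -1.01 and 0.24, and the other genes lie in the centre.

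The likeness of other probes to Pbx3 was read as the distance between their values over the 4 arrays, each centred on its mean on the log2 scale, over 19230 genes detected on all arrays. The nearest was a probe that the annotation names only by an Ensembl transcript, which the tables used here pair with no gene, so that it may be a further probe of Pbx3 itself. Its signals of 309.1, 1951, 2503 and 265.0 in parental ES, clone #1, clone #9 and HoxA9-Ct ES almost coincided with those of Pbx3, at a distance of 0.085. The next, as the 4 nearest named genes, were Mall (0.28), which encodes a membrane protein of the MAL family, Selenop (0.45), the selenium transport protein, Rhox5 (0.54), an X-linked homeobox gene, and Gdpd5 (0.56), a glycerophosphodiester phosphodiesterase. Their log2 ratios to parental ES ran from 1.97 to 2.71 in clone #1 and from 2.51 to 3.15 in clone #9, and from -0.82 to 0.15 in HoxA9-Ct ES. These distances describe 4 arrays.

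Pbx3 lies on chromosome 2, and the 6 measured genes on each side of it in the RefSeq order were read after its rise had been seen. Of the 12 neighbours, 10 were well above background on all arrays, and their log2 differences of clones and parental ES ranged from -0.20 in Fbxw2 to 0.30 in Mvb12b. The adjacent genes Mvb12b and Mapkap1 lay at 0.30 and 0.11, and limma called 0 of the 12. Pbx3 therefore stood apart from the genes around it on the chromosome.

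**Figure D4:**
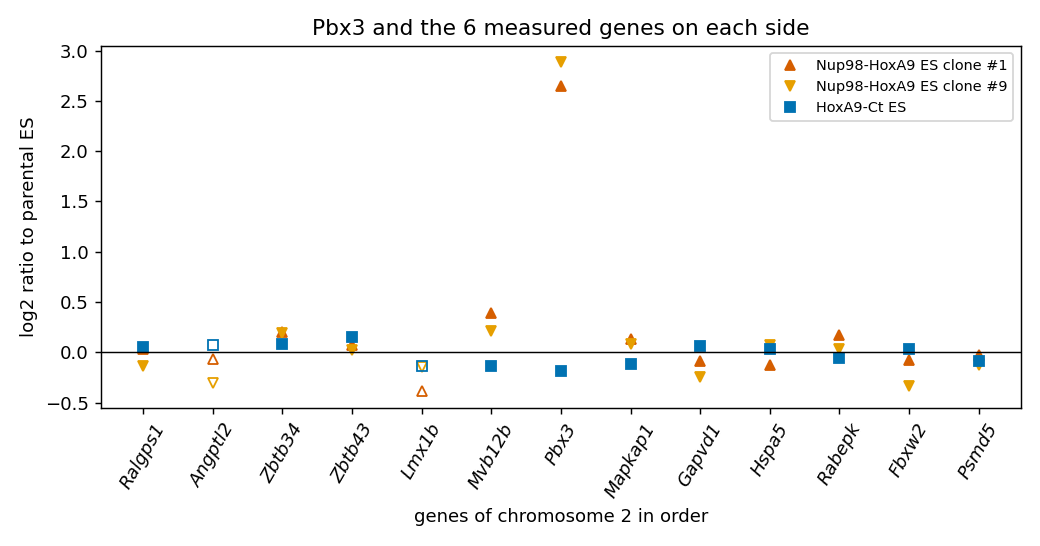
Log2 ratio to parental ES of Pbx3 and of the 6 measured genes on each side, in their order on chromosome 2 and not to scale; filled symbols are genes well above background on all 4 arrays and open symbols genes that were so on fewer. The clones reach 2.65 and 2.88 at Pbx3, while Mvb12b, the highest of its neighbours, lies at 0.40 in clone #1 and 0.21 in clone #9.

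Some markers of other cell types also rose in the clones. All 5 markers of primitive endoderm, the extraembryonic lineage that ES cells can enter, exceeded parental ES by over 2-fold in either clone, and limma called 2 of them higher than in parental ES and 4 higher than in HoxA9-Ct ES. Among those 4, Sox17 and Dab2 had signals in HoxA9-Ct ES that were not well above background (3.902 and 8.227). Gata6, which specifies this lineage, read 57.37 in parental ES, 261.6 and 365.2 in clones #1 and #9, and 20.02 in HoxA9-Ct ES, a mean rise of 2.38 (limma adjusted p = 0.00275). Sox17, an endoderm factor, had signals of 32.88, 118.0, 160.2 and 3.902 in the same order, a mean rise of 2.01 (limma adjusted p = 0.0257). Gata4 and Dab2 had mean differences of 1.88 and 1.78 that were not called (limma adjusted p = 0.0507 and 0.0808). The summed level of the 5 markers, in units of the 75th percentile of each array, was 0.931 in parental ES, 3.24 and 4.04 in clones #1 and #9, and 0.467 in HoxA9-Ct ES. Between HoxA9-Ct ES and parental ES, limma called 1 of the 5 markers, Sox17, which fell by 2.94 on the log2 scale (limma adjusted p = 0.00227) to a signal not well above background. Gata4, Gata6 and Dab2 had differences of -1.16, -1.39 and -2.05 that were not called, against -0.19 for Pbx3. The remaining marker, Sox7, went the other way, with a difference of 0.24 that was not called. Whether the markers and Pbx3 differed in this comparison was not tested.

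**Figure D5:**
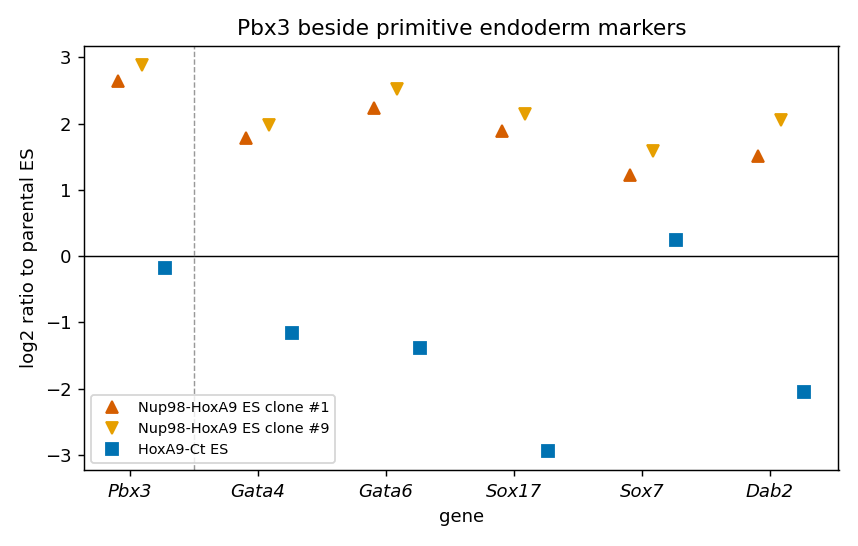
Log2 ratio to parental ES of Pbx3 and of the 5 primitive endoderm markers in clone #1, clone #9 and HoxA9-Ct ES, with 1 point per array. All 6 genes lie above 0 in both clones, while in HoxA9-Ct ES Pbx3 lies at -0.19 and Sox17 at -2.94.

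The 4 trophectoderm markers were all below the detection limit in parental ES and in HoxA9-Ct ES, and 2 of them were well above background in clone #1 and 3 in clone #9. Their summed level was 0.0718, 0.250, 0.426 and 0.123 in parental ES, clone #1, clone #9 and HoxA9-Ct ES, and limma called Cdx2 and Elf5 higher in the clones than in parental ES. Elf5 was well above background in clone #1 alone (25.95, against 11.85 in clone #9). Set against the lowest parental signal well above background, the mean of the clones was 1.82-fold for Cdx2 and 1.43-fold for Elf5. Cdx2 also had a log2 difference of 2.34 between HoxA9-Ct ES and parental ES, which was not called (limma adjusted p = 0.06), and of 0.74 between the clones and HoxA9-Ct ES (limma adjusted p = 1.0). Of the 4 fibroblast markers, Pdgfra alone was called higher in the clones, and the summed level was 7.59, 9.62, 17.8 and 10.5 in the same order. Col1a1, another of the 4, had log2 ratios to parental ES of -0.18 in clone #1 and 1.93 in clone #9. The 5 neural markers held 1 call, Pax6, which was lower in the clones and not well above background there, and the 5 mesoderm markers held 0. Whether cells of any of these types were present, and whether they had a part in the rise of Pbx3, was not tested.

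Partners and relatives of the 9 genes gave no calls. Over all genes, 0.882% were called higher and 0.615% lower in the clones than in parental ES. Lists of this size would hold few calls at such shares. Of 9 other genes of the TALE class, Irx genes and Mkx among them, 5 were well above background on all arrays and 0 were called in any comparison, with a median log2 difference of clones and parental ES of 0.00. All 17 genes of proteins that bind Pbx, Meis or Tgif proteins, Smads, histone deacetylases, acetyltransferases and corepressors among them, were well above background on all arrays, and 0 were called, with a median of -0.09.

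Of 8 genes known as targets of Meis1 or of Hoxa9 with Meis1, 6 were well above background on all arrays and 1 was called. It was lower in the clones than in parental ES, against 0.615% of all genes, so this share rests on a single gene. Myb, a transcription factor of blood progenitors, read 231.0 in parental ES, 40.08 and 59.61 in clones #1 and #9, and 157.7 in HoxA9-Ct ES. Both clones were below both other lines, by a mean of -2.29 on the log2 scale against parental ES (limma adjusted p = 0.00504) and of -1.87 against HoxA9-Ct ES, which did not pass (limma adjusted p = 0.0545). The median of the 8 was -0.43.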

How the data were processed

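RNA of 4 ES cell lines was hybridised to one-colour Agilent mouse arrays. According to their processing notes, the authors used Feature Extraction 10.10.1.1. Each spot has a deposited intensity (processed signal, background-subtracted and detrended), a median pixel and flags, and the deposited series matrix repeats this intensity times a constant for each array (3.297, 3.485, 3.189 and 3.627 for parental ES, clone #1, clone #9 and HoxA9-Ct ES).

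Processed signals outside the controls were divided by their 75th percentile on the array and put on a log2 scale, and spots were averaged per probe without outliers, which left 55562 of 55681 probes. The probe with the highest mean over the arrays stood for its gene. RefSeq accessions (GRCm38.p6) named 26762 probes, and the others were counted as genes under their annotation names. The array annotation uses mm9, so positions are printed only for promoter sequences, whose build is that of the table. lmFit and eBayes of limma 3.58.1 (R 4.3.3) were fitted to 3 groups, with a single residual degree of freedom. The prior degrees of freedom were infinite, with a prior SD of 0.454, so every probe has the same standard error, of 0.556 for clones against a single array and 0.642 for a single array against another. Nothing in the labels says that the clones were sampled as replicate cultures. The p-values rest on the spread between the 2 clones, pooled over all probes. The single arrays of parental ES and HoxA9-Ct ES were assumed to vary to the same extent. The number of arrays limits the precision.

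Named genes are all members, genes of the fixed lists that limma called or that were beyond 2-fold in both clones (up to 4 per list), and the 5 probes nearest to Pbx3. Outside this rule, Hoxa9, Pou5f1, Nanog, Sox7, Col1a1, Mkx and neighbours of Pbx3 were named for description. Members and lists were chosen with earlier results of these data known. Alternatives covered background correction, scaling, filters on dim probes, a floor, the series matrix, outlier spots, eBayes settings, the probe of a gene and each clone. Other steps used Python 3.11.15, numpy 2.4.6, pandas 2.3.3 and matplotlib 3.10.9.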

Additional observations from a re-analysis of the deposited data

Results flagged for a closer look

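Pbx3 differed between the clones and HoxA9-Ct ES when both were set against parental ES: the clones lay 2.77 above parental ES on the log2 scale and HoxA9-Ct ES lay at -0.19, a difference of 2.95 (limma adjusted p = 3.55e-05), in the same direction in 2 of 2 clones.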

How the results depend on the processing

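The number of called genes fell from 1 to 0 of 9, in the clones against parental ES and against HoxA9-Ct ES alike, under quantile normalization (Pbx3 adjusted p = 0.422 and 0.352), and with probes kept only if well above background on 1 or more arrays (0.28 and 0.308) or on all 4 (0.0883 and 0.0636). The ratio of Pbx3 itself was 2.77 to 2.80 and 2.95 to 2.99 in these fits. Their prior degrees of freedom were 0.817, 2.18 and 4.18 instead of infinite, and over all probes they called 0, 0 and 11 for the clones against parental ES (781 in the main setting; 5069, 2224 and 2235 at an unadjusted p under 0.05) and 0, 0 and 1 against HoxA9-Ct ES (756 in the main setting). Pbx3 was called in the other 7 alternatives with a test in both comparisons, and its ratio kept its direction in all of them and without either clone (2.65 and 2.88 against parental ES, 2.84 and 3.07 against HoxA9-Ct ES). None of the other 8 genes was called in any alternative. HoxA9-Ct ES against parental ES gave 0 of 9 throughout.

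The median of the 9 genes moved to 0.112 against parental ES and to 0.036 against HoxA9-Ct ES with normexp on the median pixel, and to -0.056 for HoxA9-Ct ES against parental ES when all probes of a gene were averaged; the cause was not tested. Leaving out 1 clone gave medians of 0.141 to 0.238 against parental ES and 0.098 to 0.111 against HoxA9-Ct ES. Of 306 values of single genes under alternatives, 11 changed sign, none of them called and none larger than 0.386 in size; 3 of the 11 came from leaving out a clone, among them Pknox2 against parental ES (-0.386, and 0.238 without clone #1). Quantile normalization moved the median of all probes in the clones against parental ES from -0.184 to -0.01. The normexp setting was chosen after the files were seen, because the mean pixel it was planned for is not in the columns used here. No paired analysis was possible because parental ES and HoxA9-Ct ES have a single array each, so no groups share 2 replicate numbers.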
